A study of Rattus norvegicus with 23 samples.

Results

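Col1a1, Col1a2 and Col3a1, the genes of the main fibrillar collagens of the heart, were followed in the heart apex of 23 Lewis rats after kidney transplantation. They were taken by their Ensembl identifiers (ENSRNOG00000003897, ENSRNOG00000011292 and ENSRNOG00000003357), which are 3 of the 26405 gene rows in each count table. All 3 were counted in every library and passed the filter on low counts, which left 11568 genes. Fibrillar collagens are secreted as procollagens of 3 chains wound into a triple helix, trimmed outside the cell and assembled into fibrils that are then cross-linked. Col1a1 and Col1a2 encode the chains of type I collagen, which gives heart matrix its stiffness. Col3a1 encodes the single kind of chain of type III collagen, which forms finer and more compliant fibrils together with type I. In the heart both types come mainly from fibroblasts, and their deposition is a hallmark of cardiac fibrosis.

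RNA-seq of polyadenylated RNA was made from the apex 6 weeks after transplantation, with 1 library per rat. Donors and recipients either had chronic kidney disease (CKD) or were healthy. In CD-CR (n = 6) both had CKD, in HD-CR (n = 5) the recipient alone, in CD-HR (n = 6) the donor alone, and in HD-HR (n = 6) neither. CKD had been induced by coagulating part of the renal artery branches on both sides, followed by the nitric oxide synthase inhibitor L-NNA (200 mg/L in drinking water) and chow with 6% NaCl, which were stopped at a proteinuria of 200 mg per 24 h. A CKD rat entered the transplantation protocol when proteinuria was 100 mg per 24 h without them. Every recipient, in all groups, received a left kidney in place and lost the right native kidney 10 to 14 days later. A CKD recipient's heart had itself been exposed to L-NNA and NaCl, whereas in a healthy recipient with a CKD kidney only the donor had been, so recipient CKD and its induction cannot be told apart. Lewis rats are inbred, so the transplants were isografts. The sources used here give no age or sex.

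Libraries held 7391929 to 12444980 counts in genes, and the fibrillar collagens together took 0.0153 to 0.177% of them. The counts behind single values were 368 to 3864 for Col1a1, 229 to 1321 for Col1a2 and 834 to 11757 for Col3a1. The lowest of these, 229 counts, has a counting error of 6.61% (SD), well below the spread between rats. Levels are given as CPM (counts scaled to a common library size) after TMM scaling, which are not scaled by transcript length, so levels of different genes are not compared with each other. The deposited animal names begin with 12 in 5 of 6 CD-CR and 4 of 5 HD-CR rats, and with 13 in all 12 healthy recipients, 1 CD-CR rat (CD-CR5) and 1 HD-CR rat (HD-CR5). No source used here says what the prefix stands for, so a possible batch and recipient CKD can hardly be told apart, while the donor comparison in healthy recipients lies wholly within prefix 13. Defining markers of heart cell types could not be looked up, because the tables carry identifiers without gene names.

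Of the 3 members, 1 (Col1a2) matched an entry in the RefSeq promoter table (build GRCr8). Its upstream sequence is shown as background, and with 1 entry words shared by the members could not be looked for. The stretch lies 250 to 131 bases before the annotated start, at chr4:33518307-33518426 on the plus strand, and capitals mark matches to the words searched.
Col1a2: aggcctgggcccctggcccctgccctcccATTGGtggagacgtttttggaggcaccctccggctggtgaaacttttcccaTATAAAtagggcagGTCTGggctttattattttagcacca
Known promoter words were searched on both strands of the 250 bases before the start, and no matches overlap. CCAAT, the core bound by the factor NF-Y, matched once, on the minus strand, and is found in 34.0% of all 33469 promoters of the table. TATAAA, a word that helps to place transcription starts, matched once, on the plus strand, against 12.9% of all promoters. This match begins 170 bases before the annotated start, and whether it places that start was not tested. CAGAC, found in sites bound by SMAD factors, matched at 2 places on the minus strand, the second 23 bases before the start and outside the printed stretch, against 42.9% of all promoters. GGGCGG, a core bound by Sp1 and found in 30.5% of all promoters, had no match in this window. The counts themselves do not bear on these words.

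Col3a1 was highest in healthy recipients of a CKD kidney and lowest in CKD recipients of a healthy kidney. CD-CR hearts ran from 100.1 to 634 CPM with a median of 216 CPM. HD-CR hearts had 93.3, 151, 104, 181 and 141 CPM in replicates 1 to 5. CD-HR hearts ran from 204 to 1080.2 CPM with a median of 279 CPM, and HD-HR hearts from 123 to 314 CPM with a median of 164.4 CPM. The highest hearts were CD-HR1 at 1080.2 CPM, CD-HR5 at 711 CPM and CD-CR6 at 634 CPM, and in HD-HR it was HD-HR4 at 314 CPM. On the log2 scale the gap to the next heart was 0.34 of the group's range for CD-CR6. It was 0.25 for CD-HR1 and 0.35 for HD-HR4, and none reached the limit of 0.625 for a heart that stands apart. Mean levels were 279 ± 190.4 CPM in CD-CR (SD, n = 6), 134 ± 35.6 CPM in HD-CR (n = 5), 466.4 ± 354 CPM in CD-HR (n = 6) and 190.2 ± 69.8 CPM in HD-HR (n = 6). The order of the log2 levels was CD-HR, CD-CR, HD-HR and HD-CR, and each group overlapped the next, with steps of 0.69, 0.38 and 0.48 on the log2 scale against SDs of 0.39 to 0.97 within groups.

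Col1a1, the chain that makes up most of each type I collagen molecule, had the same order of groups in mean log2 level. Its lowest groups were not ordered alike on every scale: the mean CPM of HD-CR lay above that of HD-HR, and so did the edgeR estimate. CD-CR hearts ran from 44.2 to 268 CPM with a median of 88.5 CPM. HD-CR hearts had 35.6, 55.2, 47.2, 79.7 and 211 CPM in replicates 1 to 5. CD-HR hearts ran from 70.3 to 355 CPM (median 97.3 CPM), and HD-HR hearts from 50.1 to 148 CPM (median 65.5 CPM). HD-CR5 stood apart from the other HD-CR hearts for this gene, while its Col3a1 level lay within their range. The means were 122 ± 87.9 CPM in CD-CR (SD, n = 6), 85.7 ± 71.8 CPM in HD-CR (n = 5), 150.2 ± 109 CPM in CD-HR (n = 6) and 77.7 ± 37.0 CPM in HD-HR (n = 6). Neighbouring groups in the order overlapped and lay 0.35, 0.46 and 0.06 apart on the log2 scale, with SDs of 0.59 to 1.01.

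Col1a2, which encodes the other type I chain, spread least. CD-CR hearts ran from 27.5 to 108 CPM with a median of 42.5 CPM. HD-CR hearts had 27.6, 44.8, 28.1, 39.8 and 54.1 CPM in replicates 1 to 5. CD-HR hearts ran from 36.2 to 121 CPM (median 50.96 CPM) and HD-HR hearts from 26.9 to 69.6 CPM (median 43.5 CPM). The 4 highest hearts were also those highest in Col3a1, namely CD-HR1, CD-CR6, CD-CR1 and CD-HR5, and no group stood clear of another. The means were 60.6 ± 37.4 CPM in CD-CR (SD, n = 6), 38.9 ± 11.3 CPM in HD-CR (n = 5), 65.6 ± 35.6 CPM in CD-HR (n = 6) and 46.3 ± 15.4 CPM in HD-HR (n = 6). Here too neighbouring groups overlapped, with steps of 0.16, 0.24 and 0.23 on the log2 scale and SDs of 0.42 to 0.85.

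**Figure D1:**
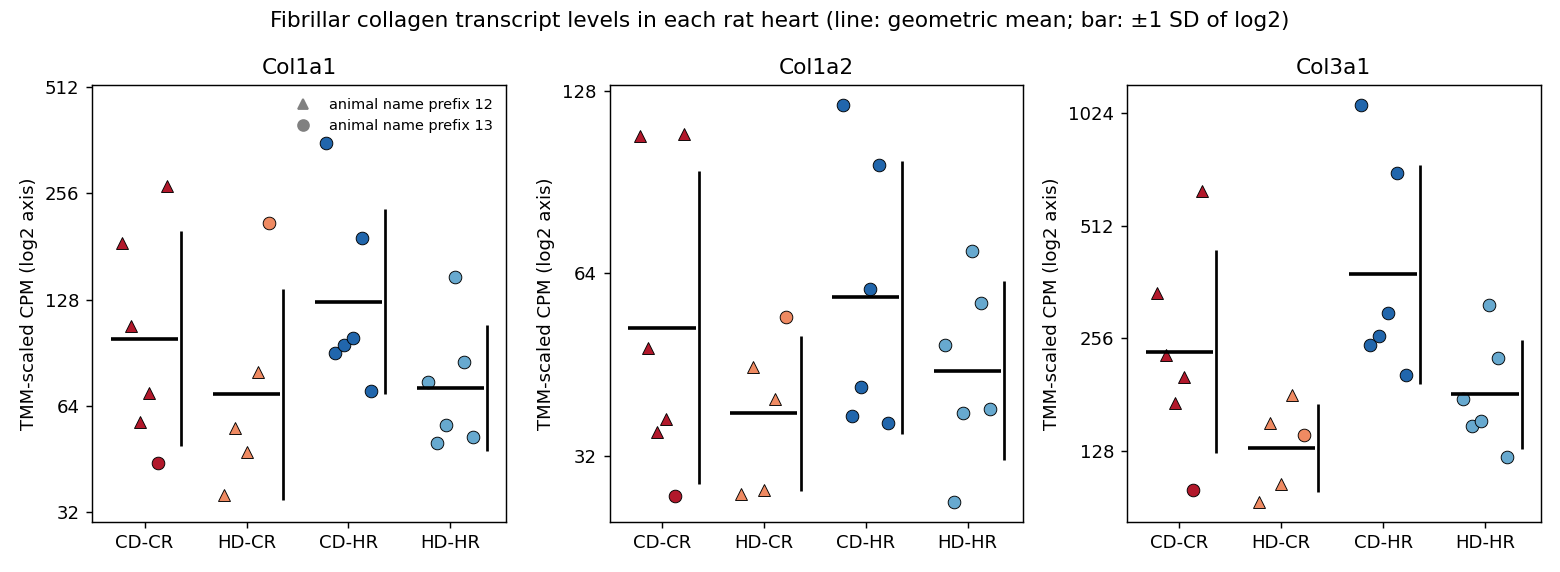
TMM-scaled CPM of Col1a1, Col1a2 and Col3a1 (log2 axes) in each of the 23 hearts by group, with the geometric mean (line) and ±1 SD of log2 CPM (bar); triangles are animal names with prefix 12, circles with prefix 13. CD-HR1 is the highest heart for all 3 genes, and all neighbouring groups overlap.

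Whether a kidney from a CKD donor goes with a different heart transcriptome was asked in each kind of recipient and as an average over both. In healthy recipients Col3a1 was higher by 1.29 ± 0.44 on the log2 scale (SE; 2.45-fold, 95% confidence interval 1.30 to 4.64) in CD-HR than in HD-HR, and did not pass the test (unadjusted p = 0.0082, adjusted p = 0.496 by edgeR). All 6 CD-HR hearts lay above the HD-HR median of 164.4 CPM, and 2 lay above the highest HD-HR heart. Col1a1 was 0.95 ± 0.53 higher (SE; adjusted p = 0.716 by edgeR), also with 6 of 6 CD-HR hearts above the HD-HR median. Col1a2 was 0.50 ± 0.38 higher (SE; adjusted p = 0.805 by edgeR), with 3 of 6 CD-HR hearts above that median. None of the 3 members passed, and the edgeR test called 0 (0%) of the 11568 genes in this comparison, with 879 (7.6%) at an unadjusted p under 0.05. DESeq2 called 7 genes and limma-voom 0, none of them a member. Without CD-HR1 the log2 differences were 0.85 for Col3a1, 0.49 for Col1a1 and 0.23 for Col1a2.

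In CKD recipients the same donor comparison set CD-CR against HD-CR. Col3a1 was 1.06 ± 0.47 higher on the log2 scale in CD-CR (SE; 2.09-fold, 95% confidence interval 1.06 to 4.09; unadjusted p = 0.0341, adjusted p = 0.557 by edgeR). Of the 6 CD-CR hearts, 5 lay above the HD-CR median and 4 above the highest HD-CR heart. Col1a2 was 0.64 ± 0.40 higher and Col1a1 0.51 ± 0.55 higher (SE), with adjusted p of 0.680 and 0.826 by edgeR. None of the 3 members passed, beside 3 genes (0.0259%) called in all and 961 (8.31%) at an unadjusted p under 0.05. Single hearts moved these values: without CD-CR6 the differences were 0.64 for Col3a1, 0.40 for Col1a2 and 0.12 for Col1a1. Without CD-CR1 that of Col1a2 was 0.39 and that of Col1a1 0.34, and Col1a1 was at 0.32 without HD-CR1 and at 1.17 without HD-CR5. Within prefix 12, which holds 5 CD-CR and 4 HD-CR hearts, the differences were 1.24 for Col3a1, 0.93 for Col1a2 and 1.33 for Col1a1, and none passed. Within prefix 13 there is 1 heart in each group, and CD-CR5 against HD-CR5 gave -0.52 for Col3a1, -1.01 for Col1a2 and -2.29 for Col1a1.

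Averaged over recipients, the difference with a CKD donor kidney was 1.18 ± 0.32 for Col3a1 (SE, log2; 2.26-fold, 95% confidence interval 1.42 to 3.60), 0.73 ± 0.38 for Col1a1 (1.66-fold, 0.957 to 2.89) and 0.57 ± 0.27 for Col1a2 (1.49-fold, 1.001 to 2.21). Adjusted p by edgeR were 0.106, 0.436 and 0.391, so none of the 3 passed. Before adjustment 2 of the 3, Col3a1 and Col1a2, stood under a p of 0.05 in edgeR, both of them higher, as did 6.77% of all genes tested. The edgeR test called 0 (0%) of 11568 genes here, with 1477 (12.8%) at an unadjusted p under 0.05, while DESeq2 called 226 and limma-voom 0. DESeq2 called Col3a1 (log2 1.17, adjusted p = 0.0210), where adjusted p for Col3a1 ran from 0.0210 to 0.960 over all alternatives. With the prefix as a covariate in edgeR the values were 1.12 for Col3a1, 0.88 for Col1a1 and 0.56 for Col1a2. Within prefix 13, where each CKD recipient group has 1 heart, they were 0.39, -0.66 and -0.25. The median of the 3 members was 0.73, against 0.01 over all genes tested, and 0.138% of all genes had a larger difference than Col3a1. A rank by fold change favours genes with a wide spread between rats. The spread of Col3a1 fitted by edgeR lay above that of 97.2% of all genes. For recipient CKD averaged over donors, 97.7% of all genes had a higher value than Col3a1. The members' levels moved together, so their median is not 3 separate observations. In bulk tissue fewer or more collagen-producing cells and less or more RNA per cell cannot be told apart.

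**Figure D2:**
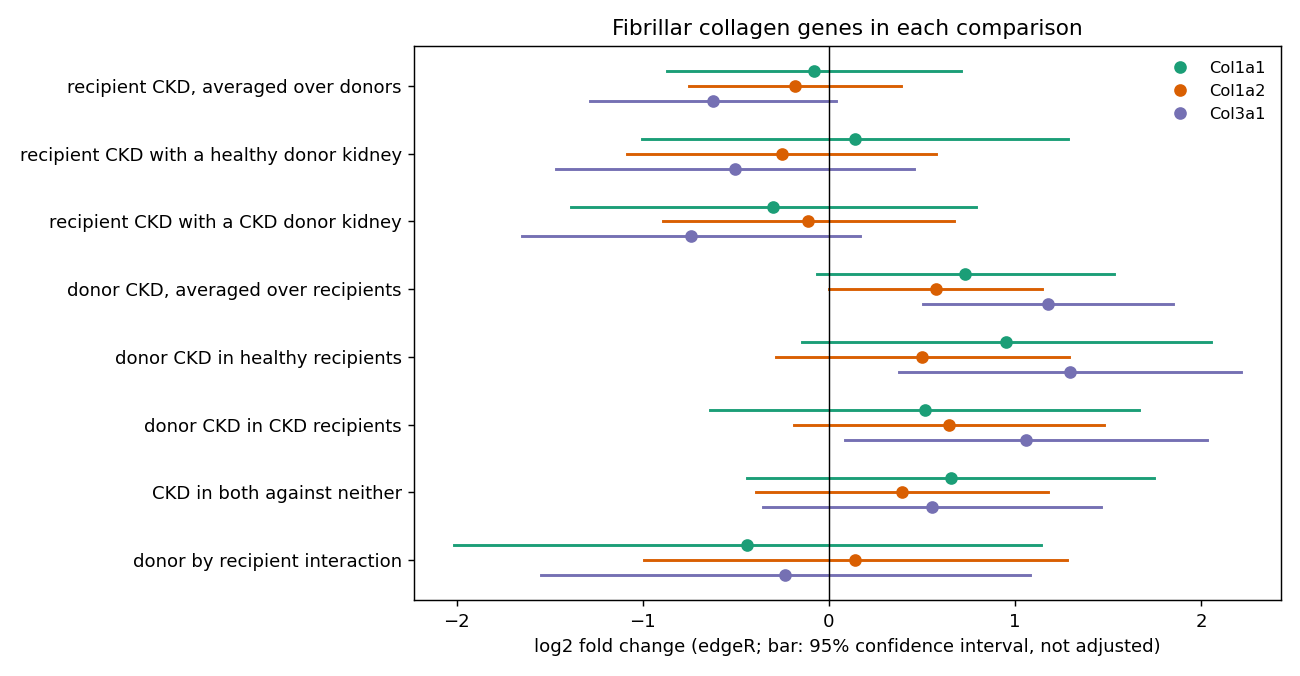
Log2 fold change (x axis) of Col1a1, Col1a2 and Col3a1 in the 8 comparisons, from edgeR on 23 libraries, with 95% confidence intervals that are not adjusted for multiple testing. The Col3a1 intervals of the 3 donor comparisons lie above 0, and no point passed after adjustment over 11568 genes.

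CKD of the recipient was not accompanied by a called change in any of the 3 genes. Averaged over donors, Col3a1 stood at -0.62 ± 0.32 in CKD against healthy recipients (SE, log2; 95% confidence interval -1.28 to 0.04; adjusted p = 0.197 by edgeR). Col1a2 stood at -0.18 ± 0.27 and Col1a1 at -0.08 ± 0.38, with intervals of -0.75 to 0.39 and -0.87 to 0.71 (adjusted p = 0.701 and 0.913 by edgeR). In this comparison 12.8% of all genes were called. With the animal name prefix as a covariate the values were -1.16 for Col3a1, -0.32 for Col1a2 and 0.52 for Col1a1, the last on the other side of 0, and none of the 3 passed. With it 6 genes were called in all. Without CD-HR1 the value of Col3a1 was -0.40, and over all single hearts left out it lay between -0.83 and -0.40. Median non-unique alignments per counted read were 1.41 in CD-CR, 1.19 in HD-CR, 2.61 in CD-HR and 2.21 in HD-HR, with overlapping ranges. With that measure as a covariate, chosen after seeing the data, the values were -0.30 for Col3a1, 0.17 for Col1a2 and 0.27 for Col1a1, of which none passed.

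With a healthy donor kidney, HD-CR against HD-HR gave -0.51 ± 0.46 for Col3a1, -0.25 ± 0.40 for Col1a2 and 0.14 ± 0.55 for Col1a1 (SE, log2; adjusted p = 0.590, 0.775 and 0.917 by edgeR), beside 0.614% of genes called. Without HD-HR4 the value of Col3a1 was -0.30. The small value of Col1a1 hung on HD-CR5, without which it was -0.51, and the mean log2 levels (6.11 in HD-CR and 6.17 in HD-HR) also differ in the other direction. With a CKD donor kidney, CD-CR against CD-HR gave -0.74 ± 0.44 for Col3a1, -0.11 ± 0.37 for Col1a2 and -0.30 ± 0.52 for Col1a1 (SE, log2; adjusted p = 0.389, 0.904 and 0.804 by edgeR), beside 1.56% of genes called. Without CD-HR1 the value of Col3a1 was -0.30, and without CD-CR6 it was -1.16. Without CD-HR1 Col1a1 and Col1a2 stood at 0.16 each, on the other side of 0. The 95% confidence interval of Col1a2, the gene with the least spread, reached from 0.539-fold to 1.59-fold, so a lack of change is not shown either.

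Within prefix 13 each recipient comparison rests on 1 CKD recipient per donor type. With a healthy donor kidney HD-CR5 stood at -0.38 for Col3a1, 0.28 for Col1a2 and 1.49 for Col1a1 against the HD-HR hearts on the log2 scale. With a CKD donor kidney CD-CR5 stood at -2.21 for Col3a1, -1.24 for Col1a2 and -1.75 for Col1a1 against the CD-HR hearts. Averaged over donors the values were -1.29, -0.48 and -0.13, and no member passed in edgeR within this prefix. Col3a1 kept the sign it had over all hearts in each of these comparisons, while Col1a2 with a healthy donor kidney took the other sign.

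CKD in both donor and recipient against neither, CD-CR against HD-HR, gave 0.55 ± 0.44 for Col3a1, 0.65 ± 0.52 for Col1a1 and 0.39 ± 0.38 for Col1a2 (SE, log2). Adjusted p by edgeR were 0.521, 0.530 and 0.610, and 0 of 3 members passed where 3.65% of all genes were called. Without CD-CR6 the values were 0.13 for Col3a1, 0.26 for Col1a1 and 0.15 for Col1a2, and without CD-CR1 that of Col1a2 was 0.16. With the prefix as a covariate Col3a1 was at -0.038 and 0 genes were called in all. Within prefix 13, where CD-CR5 is the only CD-CR heart, the values were -0.90, -0.79 and -0.73, and no member passed.

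The donor by recipient interaction, which tests whether the donor difference depends on the recipient, was -0.23 ± 0.63 for Col3a1, -0.44 ± 0.76 for Col1a1 and 0.14 ± 0.55 for Col1a2 (SE, log2; adjusted p = 0.99998 by edgeR for each). Each of these values took the other sign with at least 1 single heart left out. Beside them 0.00864% of all genes were called. These comparisons share libraries with those above and are not separate evidence.

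The proportion of type III to type I transcripts passed its own test in some comparisons where no single level did. The thresholds are unlike: ratios were adjusted over 8 ratio tests, single levels over 11568 genes. For CD-HR against HD-HR the unadjusted p were close, 0.00649 for the ratio (exact permutation) and 0.0082 for Col3a1 (edgeR). For that pair of groups the contrast is therefore no sign of a larger change in the ratio. For CD-CR against CD-HR they were further apart, 0.00433 for the ratio (exact permutation) and 0.105 for Col3a1 (edgeR). These come from unlike tests, and whether the ratio changed more than the level was not tested. Such ratios of other genes were not tested. The ratio was taken within each library as Col3a1 counts over the geometric mean of Col1a1 and Col1a2 counts, which no library scaling can alter, and it is not a ratio of molecules because transcript length is not included. It averaged 3.28 in CD-CR, 2.56 in HD-CR, 4.41 in CD-HR and 3.21 in HD-HR (geometric means). CD-CR hearts ran from 2.39 to 3.99, CD-HR hearts from 3.85 to 5.24 and HD-HR hearts from 2.75 to 4.07. HD-CR hearts had 2.97, 3.04, 2.86, 3.21 and 1.32 in replicates 1 to 5. The CD-HR hearts thus sat mostly above CD-CR and HD-HR, with some overlap, and HD-CR5 lay alone at the bottom.

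In healthy recipients this ratio rose by 0.46 on the log2 scale in CD-HR against HD-HR (2.14 ± 0.19 and 1.68 ± 0.20, SD, n = 6 each; two-sided exact permutation p = 0.00649, 0.0260 after Benjamini-Hochberg adjustment over 8 ratio tests). Of the 6 HD-HR hearts, 5 lay below the lowest CD-HR heart, and 4 of the 6 CD-HR hearts lay above the highest HD-HR heart. In recipients of a CKD kidney the ratio fell by 0.43 in CD-CR against CD-HR (1.71 ± 0.28 and 2.14 ± 0.19, SD, n = 6 each; exact permutation p = 0.00433, adjusted 0.0260), with 5 of 6 CD-CR hearts below the lowest CD-HR heart. Both calls use the same CD-HR hearts, so they are not independent. Both calls were lost, with adjusted exact permutation p of 0.0519 to 0.0692, when CD-HR1, CD-HR2, CD-HR3, CD-HR5 or CD-HR6 was left out, while over all single hearts left out the differences lay between 0.41 and 0.53 for CD-HR against HD-HR and between -0.49 and -0.34 for CD-CR against CD-HR. The smallest p that 6 against 6 allows is 0.00216. In the recipient comparison the only CD-CR heart of prefix 13, CD-CR5, lay 0.62 below the CD-HR mean, in the same direction, and with 1 heart no p under 0.143 is possible.

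The other ratio comparisons did not pass. Type III over type I differed by -0.33 between HD-CR and HD-HR and by 0.36 between CD-CR and HD-CR on the log2 scale (exact permutation p = 0.160 and 0.171, adjusted 0.274 for both, n = 5 and 6, then 6 and 5). Both values rested on HD-CR5, without which they were -0.09 and 0.12. The ratio of Col1a1 to Col1a2, the type I chains, was 1.90 in CD-CR, 1.84 in HD-CR, 2.16 in CD-HR and 1.63 in HD-HR (geometric means), with HD-CR5 at 3.90 the highest of all hearts. Its difference between CD-HR and HD-HR, 0.41 on the log2 scale, did not pass (exact permutation p = 0.0216, adjusted 0.0577, n = 6 each). It passed without CD-HR4 (adjusted exact permutation p = 0.040) or HD-HR4 (0.029), and the other differences of this ratio were -0.19 for CD-CR against CD-HR, 0.05 for CD-CR against HD-CR and 0.17 for HD-CR against HD-HR. Without HD-CR5 the last took the other sign, at -0.097, and CD-CR against HD-CR was at 0.32.

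**Figure D3:**
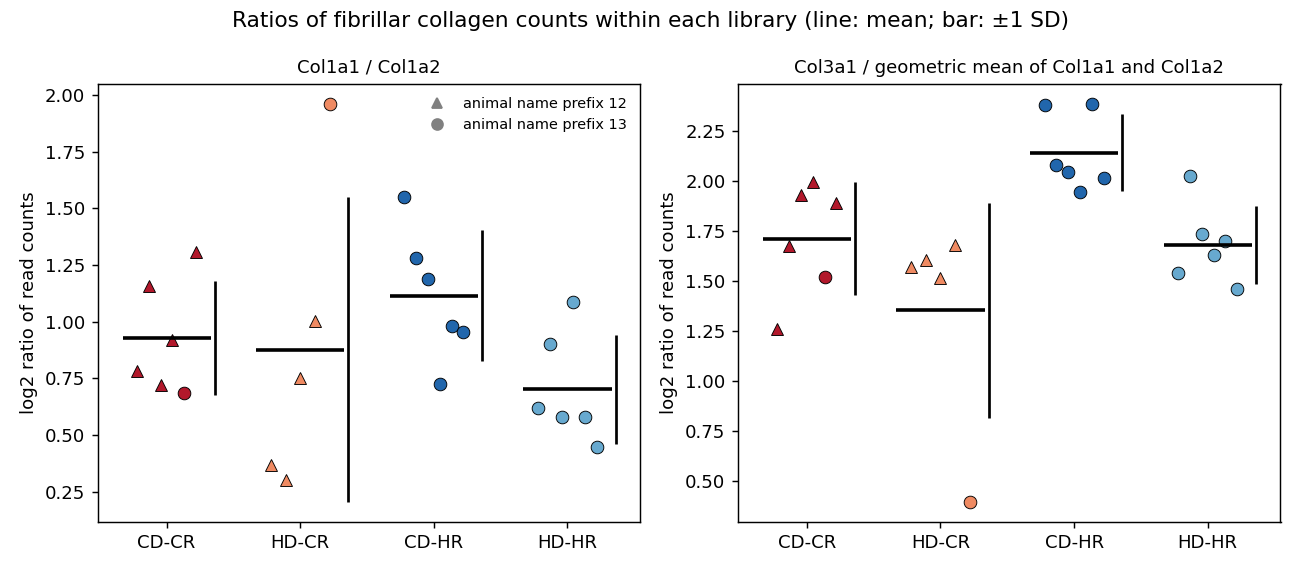
Log2 ratio of read counts within each library, Col1a1 over Col1a2 (left) and Col3a1 over the geometric mean of Col1a1 and Col1a2 (right), by group, with the mean (line) and ±1 SD (bar); triangles are animal names with prefix 12, circles with prefix 13. On the right the CD-HR hearts average 2.14 against 1.71 in CD-CR and 1.68 in HD-HR, and HD-CR5 lies alone at 0.40.

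Hearts of 1 group that were high for 1 collagen were mostly high for the others. An exception was HD-CR5, the highest HD-CR heart for Col1a1 and Col1a2 but at the group median of 141 CPM for Col3a1. With the group means taken off, the log2 levels of Col1a1 and Col1a2 had a Pearson r of 0.912 and a Spearman rho of 0.920 over 23 libraries. Col1a1 and Col3a1 had 0.871 and 0.870, and Col1a2 and Col3a1 had 0.914 and 0.886. For each of the 3 pairs the permutation p of both coefficients was 1e-05, adjusted 1e-05 over the pairs, which is the smallest that 100000 resamples can give. Without the 2 hearts farthest from the median r was 0.928, 0.935 and 0.883. Without HD-CR5 alone it was 0.938, 0.949 and 0.924. Within prefix 12 (9 libraries) it was 0.927, 0.943 and 0.902, and within prefix 13 (14 libraries) 0.913, 0.866 and 0.932. The levels share each library's scaling, which can add to such a correlation, and its part was not tested.

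**Figure D4:**
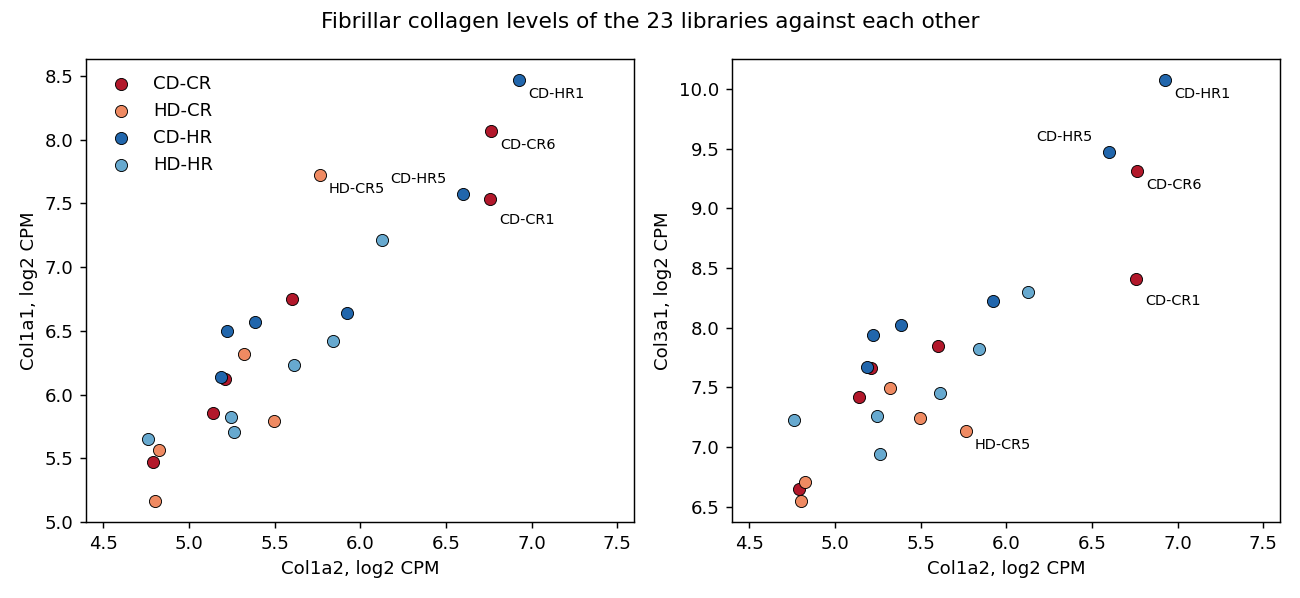
Log2 CPM of Col1a1 (left) and Col3a1 (right) against log2 CPM of Col1a2 in the 23 libraries, coloured by group. The points lie along a line, with HD-CR5 above it for Col1a1 and below the bulk for Col3a1; CD-HR1 is at the top in both.

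The spread between rats of 1 group was wide for these genes. The biological coefficient of variation fitted by edgeR was 0.545 for Col1a1, 0.407 for Col1a2 and 0.465 for Col3a1, against a median of 0.181 over all genes tested. These lay above those of 98.4, 95.2 and 97.2% of all genes. Differences between the 4 groups held 16.6% of the variance of log2 CPM for Col1a1, 13.2% for Col1a2 and 40.1% for Col3a1, where the median gene had 20.2%.

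Of the other 11565 genes, 10 had a Pearson r of at least 0.8 over the 23 libraries with the mean log2 CPM of the 3 collagens, where the median r over those genes was 0.00357. The most alike were ENSRNOG00000016758 (r = 0.920, mean 4.24 CPM) and ENSRNOG00000008749 (r = 0.909, mean 28.8 CPM), which the tables do not pair with names. With group means taken off their r was 0.900 and 0.938.

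Measures of library quality moved with the levels in part. With the group means taken off, log2 CPM of Col1a2 had a Pearson r of 0.611 (permutation p adjusted over 12 relations 0.0190) and a Spearman rho of 0.550 (adjusted 0.0523) with the percentage of reads in no feature over 23 libraries. Without the 2 libraries farthest from the median the Pearson r was 0.466. For Col1a1 and Col3a1 the r was 0.434 and 0.486 (permutation, adjusted p = 0.101 and 0.074), and the other 9 relations, with non-unique alignments, total count and the share of the 10 most abundant genes, did not pass. Reads in no feature averaged 13.9 ± 2.51% in CD-CR, 14.2 ± 1.26% in HD-CR, 16.7 ± 2.64% in CD-HR and 15.7 ± 1.49% in HD-HR (SD, n = 6, 5, 6 and 6). Non-unique alignments per counted read ran from 0.390 to 2.67 in CD-CR, 0.804 to 1.75 in HD-CR, 0.843 to 10.7 in CD-HR and 1.27 to 3.61 in HD-HR. With that measure as a covariate the averaged donor difference of Col3a1 was 1.10 (adjusted p = 0.120 by edgeR). The recipient differences of Col3a1 were then closer to 0, at -0.21 for HD-CR against HD-HR and -0.39 for CD-CR against CD-HR. For the same comparisons Col1a1 stood at 0.45 and 0.093 and Col1a2 at 0.067 and 0.27, and no member passed. The part of reads in no feature in the collagen levels was not tested.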

How the data were processed

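The deposited values are read counts per gene, 1 table per heart, not normalized by the authors; STAR 2.4.2a, Picard and HTSeq 0.6.1p1 with build Rnor_5.0 are named per the submitters' processing notes. No source used here gives what Picard was used for, the release of the annotation, the counter's strand setting (the library kit was directional, per the labels' protocols) or any duplicate removal. Reads of antisense transcripts may therefore have been counted for a gene. Reads that fit more than 1 gene were set aside as ambiguous, and non-unique alignments were not counted. Summary lines (reads in no feature were 10.6 to 21.5%) were left out. Groups and numbers came from the sample titles. No pair of libraries of 1 group agreed within sampling noise (lowest chi-square per degree of freedom 8.38).

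Genes were filtered with filterByExpr, scaled by TMM and tested in 1 fit of 23 libraries with edgeR 4.0.16 (R 4.3.3; glmQLFTest, robust). P-values were adjusted by Benjamini-Hochberg over 11568 genes, with a threshold of 0.05, and SE is the log2 fold change over the square root of F. Log2 CPM used a prior count of 2. DESeq2 1.42.0, limma 3.58.1 (voom), sva 3.50.0 and other settings were alternatives, 2 of them sets of left-out libraries and 1 a covariate chosen after seeing the data. The code of the edgeR fit was tested on simulated data without batch effects, for some of the comparisons. The code of the ratio tests and correlations was not. Ratios and correlations used scipy 1.17.1 and numpy. The members, lists and tests were chosen with earlier results of these data known. The named genes were to be the 3 members, the genes most alike in pattern and genes of 17 lists; 0 of their 151 symbols could be matched to identifiers, so 0 lists were tested and at most 2 identifiers are printed. P-values set differences or correlations against the variation between rats, 1 library each. In edgeR that variation is estimated over all groups and moderated across genes.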

Additional observations from a re-analysis of the deposited data

Results flagged for a closer look

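Of 20 sets of values (3 genes and 2 ratios in 4 groups), 3 held a heart whose gap to its nearest neighbour was large for its group's range. The limit is passed by chance in about 1 of 20 sets only if values are normal and sets independent. Gene levels entered as unlogged CPM and HD-CR5 gave more than 1 of the 3, so an excess over chance is not shown. HD-CR5 had 211 CPM of Col1a1, with the next HD-CR heart at 79.7 CPM. The same heart had a log2 ratio of Col3a1 over type I of 0.40, with the next HD-CR heart at 1.51, while its Col3a1 (141 CPM) lay inside the range of its group. HD-HR4 had 148 CPM of Col1a1, with the next HD-HR heart at 85.3 CPM. On the log2 scale, on which differences are given, neither Col1a1 heart stood apart by the same criterion: the gap was 0.548 of the range for HD-CR5 (limit 0.71) and 0.509 for HD-HR4 (limit 0.625). HD-HR4 was also the highest HD-HR heart for Col1a2 (69.6 CPM) and Col3a1 (314 CPM). HD-CR5 is the only HD-CR heart of prefix 13, and the part of the prefix in its values was not tested.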

How the results depend on the processing

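No call on a single gene was lost under any alternative, since none was made; DESeq2 made 1, for Col3a1 with a CKD donor averaged over recipients (1.17), and the cause was not tested. The donor differences of Col3a1 stayed above 0 under every alternative run except in CKD recipients within prefix 13.

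All values are log2 differences. With limma-voom Col1a1 for HD-CR against HD-HR was -0.062. With the prefix as a covariate Col1a1 was 0.52 for recipient CKD averaged over donors and 0.45 for CD-CR against CD-HR, and Col3a1 was -0.038 for CD-CR against HD-HR. Within prefix 13, in which each CKD recipient group has 1 heart, averaged donor values were -0.66 (Col1a1) and -0.25 (Col1a2). CD-CR against HD-CR then gave -2.29 (Col1a1), -1.01 (Col1a2), -0.52 (Col3a1) and -1.28 for the Col1a1 to Col1a2 ratio. CD-CR against HD-HR gave -0.79, -0.73 and -0.90 for Col1a1, Col1a2 and Col3a1, HD-CR against HD-HR 0.28 for Col1a2, and the interaction -1.52 for Col1a2. The type III ratio lost its calls there, at -0.62 for CD-CR against CD-HR with 1 CD-CR heart, and at an unaltered 0.46 for CD-HR against HD-HR, where the other tests alone moved the adjustment.

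The following 3 alternatives were chosen after seeing the data. Without CD-HR1, CD-CR6 and HD-CR5 Col1a1 was -0.51 for HD-CR against HD-HR and 0.28 for the interaction, the Col1a1 to Col1a2 ratio was -0.097 for HD-CR against HD-HR, and the type III ratio lost both calls at -0.42 (CD-CR against CD-HR) and 0.41 (CD-HR against HD-HR). Without CD-CR1, HD-CR4 and HD-HR1, the libraries farthest on the first principal components, the Col1a2 interaction was -0.12. With non-unique alignments as a covariate recipient CKD gave 0.27 (Col1a1) and 0.17 (Col1a2) averaged over donors, 0.067 (Col1a2) for HD-CR against HD-HR, and 0.093 (Col1a1) and 0.27 (Col1a2) for CD-CR against CD-HR. The cause of these changes was not tested.

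With each library left out in turn Col1a1 ran from -0.41 to 0.15 for recipient CKD averaged over donors, from -0.51 to 0.43 for HD-CR against HD-HR and from -0.69 to 0.16 for CD-CR against CD-HR, and Col1a2 from -0.36 to 0.16 for the last. Interactions ran from -0.83 to 0.21 (Col1a1), -0.12 to 0.42 (Col1a2) and -0.66 to 0.21 (Col3a1). The Col1a1 to Col1a2 ratio ran from -0.092 to 0.32 for CD-CR against HD-CR, from -0.097 to 0.32 for HD-CR against HD-HR and from 0.32 to 0.49 for CD-HR against HD-HR. The type III ratio ran from -0.49 to -0.34 for CD-CR against CD-HR and from 0.41 to 0.53 for CD-HR against HD-HR.

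Replicate numbers did not pair the hearts: libraries of the same number had mean correlations of -0.136 to 0.0962 after group means were taken off. With a replicate block the averaged donor difference of Col3a1 was 1.06 (adjusted p = 0.228 by edgeR), and no member's call changed.

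Counts of called genes over all genes depended on the setting: 1483 for recipient CKD averaged over donors was 6 with the prefix covariate and 1815 with DESeq2, 71 for HD-CR against HD-HR was 0 with 2 surrogate variables and 306 with the 2 groups alone, and 181 for CD-CR against CD-HR was 0 with the prefix covariate and 449 with DESeq2. The 422 for CD-CR against HD-HR became 0 with the prefix covariate and 651 with DESeq2, and the 3 for CD-CR against HD-CR were 0 within prefix 13 and 36 with DESeq2. Each 95% interval of a gene's log2 difference in edgeR spans more than 1 unit. The counting error at the lowest count was 6.61% (SD), and the part of sequencing depth in these widths was not tested.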
